A study of Mus musculus with 9 samples.

Results

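Scavenger receptors are the surface proteins by which macrophages bind and internalise modified lipoproteins, dying cells, protein aggregates and microbes. They are grouped in classes by domain structure rather than by ancestry. Msr1 encodes the trimeric class A receptor SR-A, and Marco encodes its class A relative on alveolar and splenic marginal zone macrophages. Cd36 and Scarb1 encode the class B receptors for oxidised lipoprotein and long-chain fatty acids and for high-density lipoprotein. Stab1 encodes the class H receptor stabilin-1, which clears the matrix protein SPARC and phosphatidylserine-bearing cells. Lrp1 encodes a large endocytic receptor of the LDL receptor family that takes up apolipoprotein E and alpha-2-macroglobulin. Cd5l is not a receptor: it encodes AIM, a soluble protein of scavenger receptor cysteine-rich (SRCR) domains that tissue macrophages secrete and that mouse adipocytes take up through Cd36. In the brain, microglia use several of these receptors to take up lipid debris and amyloid.

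These 7 genes were found by symbol among the 49671 gene IDs of the deposited table, 1 row each, and followed over 7, 30 and 90 days after traumatic brain injury. Of the 7, 6 passed a filter of at least 1 CPM (reads scaled to a library total of 1e+06) in at least 3 libraries, as did 15041 genes in all, and Marco did not. Msr1 and Cd5l had been chosen by their values, because an earlier reading of the same table had named both for their fall from day 7 to day 90. That comparison is therefore described for them without a test. How far values entered the choice of the other 5 genes is not known.

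The mice were male C57BL/6 animals carrying the CD45.2 allele, and every group shared the same marrow transplant. At 8 weeks of age they received 1000 cGy of irradiation with the head shielded, then 30 mg/kg busulfan, then marrow from CD45.1 donors. Controlled cortical impact, a piston blow to the exposed cortex with a 3 mm tip at 2.5 m/s and 2 mm depth, followed at 16 weeks. CD45.2 microglia were sorted from the brain at day 7, day 30 or day 90, with 3 mice and 1 library each a time point, 9 libraries in all, numbered 2, 3 and 4 at day 7 and day 30 and 1, 3 and 4 at day 90. All comparisons are between days, since mice without injury were not analysed here. A CD45.2 gate keeps any host leukocyte, border macrophages included, and the sources used here name no second sort marker.

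Gene-assigned reads per library ranged from 7210985 to 12965926. All 12 microglia markers, among them Cx3cr1, the fractalkine receptor gene, had reads in every library, with summed levels of 19336 to 25973 CPM. Day 90 replicate 1 stood apart, with a median correlation across genes of 0.837 with the other libraries against 0.866 to 0.887 for the rest.

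Sequence before the transcription start was held for 5 of the 7 genes in the RefSeq promoter table, and was searched on both strands for 5 short motifs of macrophage and lipid-responsive transcription factors. These were GAGGAA (the core bound by PU.1), TGANTCA (AP-1), TGCTGA (the core bound by MAF factors), AGGTCA (the core bound by nuclear receptors) and CACGTG (the E-box). The 250 bases before the start are shown for Cd5l, which fell to 0 reads, Stab1, which was read at every day, and Marco, which had no reads, with motif matches in capitals. All are on GRCm38.p6 and read 5′ to 3′ on the gene's own strand, with Cd5l at chr3:87357631-87357880 (plus strand), Stab1 at chr14:31168642-31168891 (minus strand) and Marco at chr1:120505025-120505274 (minus strand).
Cd5l: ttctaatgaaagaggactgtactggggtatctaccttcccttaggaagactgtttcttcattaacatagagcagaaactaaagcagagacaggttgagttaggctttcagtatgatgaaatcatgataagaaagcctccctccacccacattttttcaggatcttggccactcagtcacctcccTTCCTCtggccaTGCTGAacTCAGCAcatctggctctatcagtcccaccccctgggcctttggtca
Stab1: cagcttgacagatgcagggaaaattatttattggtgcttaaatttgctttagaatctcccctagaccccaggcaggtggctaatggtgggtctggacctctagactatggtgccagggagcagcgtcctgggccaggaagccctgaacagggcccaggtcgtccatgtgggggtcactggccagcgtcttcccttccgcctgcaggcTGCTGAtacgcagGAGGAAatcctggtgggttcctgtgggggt
Marco: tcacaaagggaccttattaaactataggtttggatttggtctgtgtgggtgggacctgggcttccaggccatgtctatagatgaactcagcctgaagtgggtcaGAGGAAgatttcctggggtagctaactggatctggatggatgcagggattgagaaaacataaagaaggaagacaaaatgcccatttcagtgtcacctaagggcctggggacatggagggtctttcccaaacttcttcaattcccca
In the Cd5l window the PU.1 core lay 66 bases before the start in reverse orientation, and the MAF cores at 54 and 46 bases before it faced each other. The Stab1 window held a MAF core at 43 and a PU.1 core at 30 bases before the start, and the Marco window a PU.1 core at 146. No matches overlapped in these windows. Of all 32851 promoter windows of the same length, 23.3% held the PU.1 core, 16.1% the MAF core, 14.02% the nuclear receptor core, 6.75% the AP-1 site and 6.02% the E-box. The Cd36 window held a nuclear receptor core and a MAF core, and the Lrp1 window held none of the 5. The Cd36 window (chr5:17835897-17836146, minus strand) lies within the annotated span of the gene, 17781690 to 17888801. It therefore does not precede the outermost annotated start of Cd36. Msr1 and Scarb1 were not in the table. A match describes letters and not binding.

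Msr1, the class A receptor, was lower at each later time point. In day 7 replicates 2, 3 and 4 it had 32.2, 47.6 and 40.0 CPM, from 317, 343 and 453 reads. In day 30 replicates 2, 3 and 4 it had 14.04, 8.07 and 14.1 CPM. In day 90 replicates 1, 3 and 4 it had 4.19, 2.47 and 5.84 CPM, from 47, 26 and 69 reads. The 3 ranges did not overlap: the lowest day 7 library lay above every day 30 library, and the lowest day 30 library above every day 90 library. Means for days 7, 30 and 90 were 39.95 ± 7.66, 12.1 ± 3.46 and 4.17 ± 1.68 CPM (SD, n = 3 each). The ratio of means was 3.31 from day 7 to day 30 and 2.90 from day 30 to day 90. In bulk libraries, fewer cells of a type and less RNA per cell cannot be told apart.

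Cd5l, the soluble SRCR protein, was low by day 30 and had no reads at day 90. It had 25.9, 20.9 and 36.3 CPM in day 7 replicates 2, 3 and 4, from 255, 151 and 411 reads. In day 30 replicates 2, 3 and 4 it had 3.93, 0.448 and 0.788 CPM, from 51, 5 and 9 reads. In each day 90 library it had 0 reads. The day 30 signal thus lay mostly in 1 library, replicate 2, which held 51 of the 65 reads, and that library still lay below every day 7 library. The ratio of mean levels from day 7 to day 30 was 16.1. Against a floor of 3 reads over the 3 day 90 libraries, 0.0894 CPM, the pooled level was at least 322-fold lower at day 90 than at day 7, and at least 20.5-fold lower than at day 30. This floor covers counting error only.

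**Figure D1:**
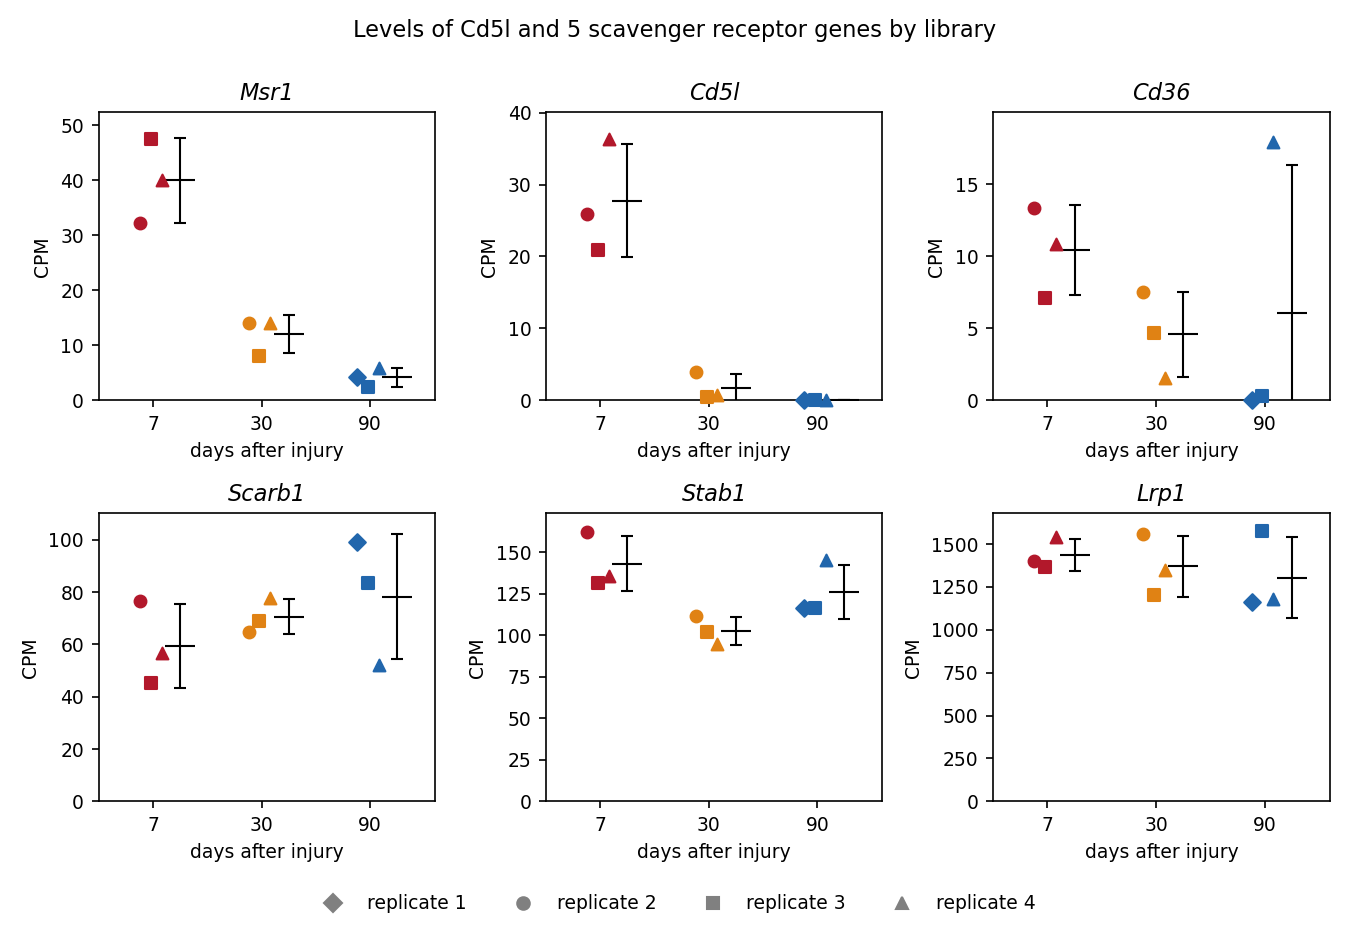
Level in CPM (y axis, from 0) against days after injury (x axis) for Cd5l and 5 scavenger receptor genes; each symbol is 1 library, its shape the replicate number, and the bar beside each group is the mean with 1 SD, cut at 0. Msr1 steps down from 39.95 to 12.1 to 4.17 CPM, Cd5l ends at 0 in all 3 day 90 libraries, and Cd36 at day 90 rests on 1 library at 17.9 CPM.

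The tests came from limma on log2(CPM + 1) over all 15041 genes, with Benjamini-Hochberg adjustment and a threshold of 0.05. For the 4 tested genes other than Msr1 and Cd5l, day 90 against day 7 gave 0 calls, where 0.206% of all tested genes were called lower, 0.0399% higher and 0.246% in either direction, and edgeR and DESeq2 also called 0 of the 4. None of the 4 had an unadjusted limma p under 0.05, against 7.73% of all genes, or lay wholly lower (6.27% of all genes) or wholly higher (5.4%), and the F-test over the 3 days called 0 of the 4, against 0.173% of all genes. The log2 differences of Msr1 and Cd5l in that comparison, which chose them, were -3.02 and -4.81, on a scale that understates changes of low genes. At day 30 against day 7 limma called 0 of the 6, where 0% of all tested genes were called. Msr1 and Cd5l had an unadjusted p under 0.05, as did 6.24% of all genes. The difference for Msr1 was -1.67 ± 0.61 (SE, adjusted p = 0.645) and for Cd5l -3.58 ± 0.87 (adjusted p = 0.362). On recovered whole reads edgeR also called 0 of the 6, where it called 0% of all genes, and DESeq2 called 1, Cd5l (adjusted p = 0.0165), where it called 0.229%. At day 90 against day 30 limma called 0 of the 6, where 0.0532% of all genes were called lower, and 1 of them, Msr1, had an unadjusted p under 0.05, as did 5.03% of all genes. The Msr1 difference was -1.36 ± 0.61 (adjusted p = 0.953) and the Cd5l difference -1.23 ± 0.87 (adjusted p = 0.959), while edgeR called 0, against 0.0465% of all genes, and DESeq2 called 1, Cd5l (adjusted p = 0.00846), against 0.182%. These comparisons share the day 7 or the day 90 mice with the one that chose both genes. Cd5l reached 1 CPM in the 3 day 7 libraries and in 1 other, so it passed the filter through the group where it was high, and its values against day 7 are not independent of that filter.

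Counted by overlap instead, 3 of the 6 tested genes, Msr1, Cd5l and Stab1, had all 3 day 30 libraries below all 3 day 7 libraries, against 5.74% of all tested genes, and none lay wholly higher, against 6.85%. Between day 30 and day 90, Msr1 and Cd5l again lay wholly lower, against 6.18% of all genes, and Stab1 wholly higher, against 3.75%. For Msr1 and Cd5l both counts share mice with the comparison that chose them, and nothing is read from their direction.

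Cd36, the class B receptor for fatty acids and oxidised lipoprotein, varied widely among the day 90 mice. It had 13.3, 7.07 and 10.9 CPM in day 7 replicates 2, 3 and 4. In day 30 replicates 2, 3 and 4 it had 7.48, 4.66 and 1.58 CPM. In day 90 replicates 1, 3 and 4 it had 0, 0.285 and 17.9 CPM, from 0, 3 and 212 reads. Replicate 4 of day 90 was the highest of all 9 libraries and the other day 90 libraries were the lowest, so the ranges overlapped. The mean at day 90 was 6.07 ± 10.3 CPM against 10.4 ± 3.15 CPM at day 7, a log2 difference of -1.94 with a 95% interval of -3.89 to 0.011 (limma adjusted p = 0.643). Without day 90 replicate 4 the difference was -3.29 (adjusted p = 0.24), and without day 90 replicate 1 it was -1.17 (adjusted p = 0.784). Between day 30 and day 90 the log2 difference was -0.78, with an interval of -2.73 to 1.17, and -0.015 without day 90 replicate 1, although the day 90 mean in CPM was the higher of the 2. Its sign turned with edgeR (0.42) and DESeq2 (0.43), which also brought the difference at day 90 against day 7 to -0.77 and -0.78.

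Scarb1, the receptor for high-density lipoprotein, showed no difference beyond the spread between mice. It had 76.7, 45.1 and 56.7 CPM in the day 7 libraries, 64.9, 69.1 and 77.9 CPM at day 30, and 99.0, 83.4 and 52.1 CPM at day 90. All 3 ranges overlapped, and the highest value was in day 90 replicate 1, the library that stood apart. The log2 difference at day 90 against day 7 was 0.37, with a 95% interval of -0.25 to 0.99 (limma adjusted p = 0.806), and it was 0.18 without day 90 replicate 1. At day 90 against day 30 it was 0.10, and -0.093 without day 90 replicate 1.

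Stab1, encoding stabilin-1, had its lowest levels at day 30. It had 162, 132 and 136 CPM in day 7 replicates 2, 3 and 4, then 112, 102 and 94.6 CPM at day 30, and 117, 117 and 145 CPM in day 90 replicates 1, 3 and 4. The day 30 libraries lay below all 6 others, while the day 7 and day 90 libraries overlapped. The log2 difference at day 30 against day 7 was -0.47 with a 95% interval of -0.96 to 0.015 (limma adjusted p = 0.798), and at day 90 against day 30 it was 0.29 with an interval of -0.20 to 0.78 (adjusted p = 0.959). From day 7 to day 90 it was -0.18 (-0.67 to 0.30). The 3′ end of Stab1 (GRCm38 chromosome 14, 31139013 to 31168641, minus strand) overlaps that of Nt5dc2 (31131053 to 31139124, plus strand). Nt5dc2 had at most 19.3 CPM. Whether counting used strand is not given, so reads of the shared end cannot be assigned with certainty.

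Lrp1, the LDL receptor family member, had 1401, 1364 and 1542 CPM at day 7, 1558, 1204 and 1352 CPM at day 30, and 1160, 1576 and 1178 CPM at day 90. All groups overlapped, and libraries of 1 day differed more than the means of the days. The log2 differences were -0.072 (95% interval -0.46 to 0.31) at day 30 against day 7, -0.078 (-0.47 to 0.31) at day 90 against day 30 and -0.15 (-0.54 to 0.24) at day 90 against day 7. The limma adjusted p-values of the 3 ran from 0.893 to 0.986. Without day 90 replicate 1 the differences of day 90 were -0.0011 against day 30 and -0.073 against day 7. The intervals, which are not adjusted for multiple tests, thus leave room for differences of up to 0.54 on the log2 scale.

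Marco, the class A receptor with a collagen-like stalk, had 0 reads in all 9 libraries. A count of 0 over a time point allows up to 0.106 CPM at day 7, 0.0844 CPM at day 30 and 0.0894 CPM at day 90. Its expression was therefore not detectable at this depth, and it has no part in the tests.

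**Figure D2:**
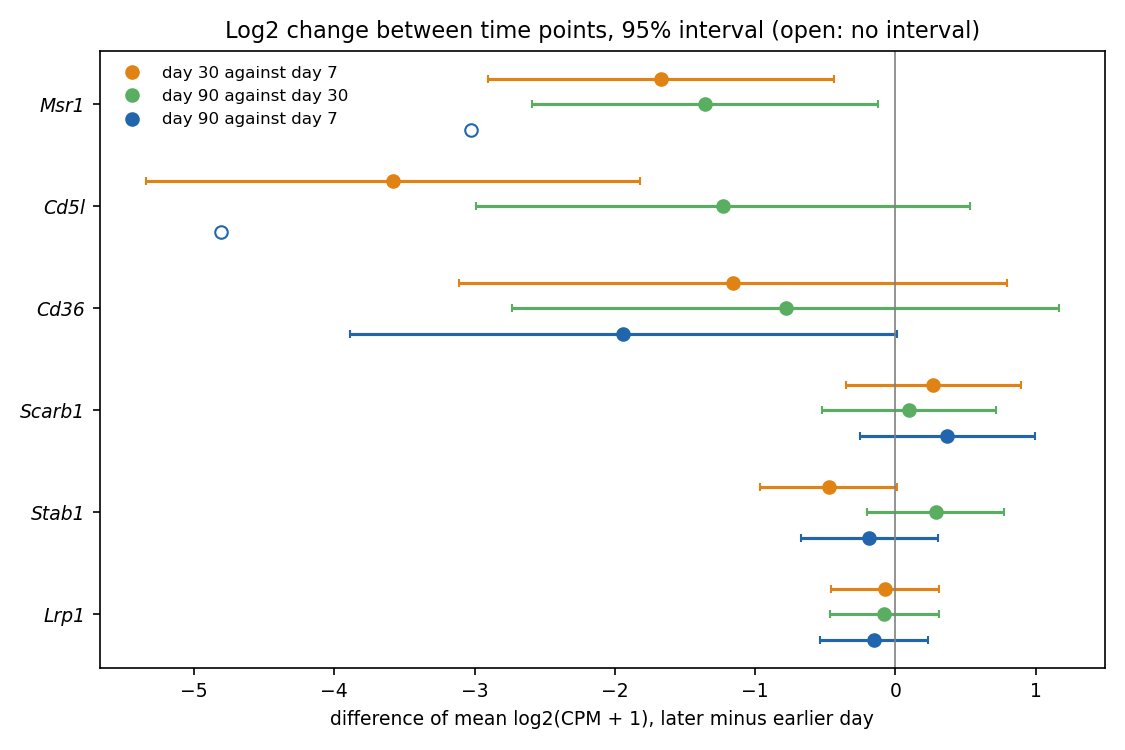
Difference of mean log2(CPM + 1) (x axis, later minus earlier day) for 6 genes (y axis) in 3 comparisons (colours); bars are unadjusted 95% intervals from limma, and open circles without a bar mark the comparison by which Msr1 and Cd5l were chosen. The Lrp1, Scarb1 and Stab1 points lie between -0.47 and 0.37, while the Cd36 interval at day 90 against day 7 runs from -3.89 to 0.011.

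Markers of other cells were followed over the same days. No tested gene of the monocyte, border macrophage, tissue macrophage or endothelial lists was called by limma in any comparison. Of all tested genes, limma called 0.246% at day 90 against day 7 and 0.0532% at day 90 against day 30. At day 30 against day 7 it called 0%. From day 7 to day 90, all 8 tested monocyte markers had a negative sign, with a median log2 difference of -1.09, against -0.024 over all genes. Negative signs were also held by 6 of 11 border macrophage markers (median -0.16), 2 of 3 tissue macrophage markers (-0.0024) and 9 of 13 endothelial markers (-0.31). From day 7 to day 30, all 13 endothelial markers were negative (median -0.51, against 0.041 over all genes). The monocyte list of 10 markers had a summed level of 219 to 272 CPM at day 7, 100.3 to 173 CPM at day 30 and 101 to 165 CPM at day 90, mostly from Fn1, the fibronectin gene. Between 8 and 10 of the 10 had reads at day 7 and between 4 and 7 at day 90. Within day 7, Ccr2, the chemokine receptor of classical monocytes, had 3.87, 17.5 and 0.354 CPM in replicates 2, 3 and 4, and Ly6c2, which encodes their Ly6C antigen, 3.87, 9.85 and 0.442 CPM. Plac8 and Chil3, also on the list, were at 0 in day 7 replicate 4. In that library, where these defining monocyte markers were at or near 0, Cd5l was at its highest (36.3 CPM) and Msr1 at 40.0 CPM, while Fn1 stood at 207 CPM as in the other day 7 libraries. The part of monocytes in the Msr1 and Cd5l results was not tested.

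The border-associated macrophage list of 11 markers, among them Mrc1, the mannose receptor gene, and Pf4, summed to 140 to 191 CPM at day 7, 101 to 139 CPM at day 30 and 104 to 175 CPM at day 90. Between 9 and 11 had reads in each library. Siglec1 was at 0 in day 7 replicate 3, day 30 replicate 2 and day 90 replicates 1 and 3. Of the 11, Folr2, a folate receptor gene, and Ms4a7 were higher in all 3 day 7 libraries than in any later one, like Msr1 and Cd5l. Of all tested genes, 5.74% lay wholly lower at day 30 than at day 7 and 6.27% wholly lower at day 90 than at day 7. The share that did both was not computed. Folr2 had 40.4, 24.96 and 19.3 CPM at day 7, 2.47, 5.74 and 3.68 CPM at day 30 and 1.87, 5.12 and 7.36 CPM at day 90. Ms4a7 had 24.0, 18.0 and 29.7 CPM at day 7, 16.5, 3.95 and 9.37 CPM at day 30 and 0, 4.55 and 3.21 CPM at day 90. Neither passed the limma threshold at day 90 against day 7 (adjusted p = 0.282 for Folr2 and 0.118 for Ms4a7). In the other direction, Cbr2 and Cd209f were higher in all 3 day 90 libraries than in any day 7 library, as were 5.4% of all tested genes. The part of border macrophages in the Msr1 and Cd5l results was not tested. Cd163, the haemoglobin scavenger receptor gene, which with Mrc1 stands on both this list and the scavenger receptor list, had 1.53, 11.1 and 7.78 CPM at day 7, 16.5, 12.4 and 8.85 CPM at day 30, and 0.446, 1.23 and 10.9 CPM at day 90. Cd163 and Cd36 were both highest in replicate 4 among the day 90 libraries, and the part of border macrophages in the Cd36 value was not tested.

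Of 8 markers of liver, spleen and peritoneal macrophages, the tissues where Cd5l is best known in mice, Clec4f and Spic were at 0 in all 9 libraries. The list summed to 397 to 741 CPM at day 7, 426 to 735 CPM at day 30 and 374 to 870 CPM at day 90, mostly from the haem oxygenase gene Hmox1. Vsig4, a complement receptor gene of such macrophages, had 4.48, 0.139 and 0.707 CPM in day 7 replicates 2, 3 and 4, from 44, 1 and 8 reads, and 0 in all 6 later libraries. Timd4, a phosphatidylserine receptor gene, was at 0 in day 7 replicate 4, where Cd5l was highest, and at 4.06 CPM in day 90 replicate 4, where Cd5l was at 0. Most Vsig4 reads lay in day 7 replicate 2, so no pattern over days or among mice is read from this gene. The part of such cells in the Cd5l result was not tested. Endothelial and pericyte markers, of which all 13 had reads in 8 libraries and 12 in day 90 replicate 1 (Kcnj8 was at 0), summed to 2154 to 3494 CPM at day 7, 1622 to 2203 CPM at day 30 and 1345 to 3968 CPM at day 90. Their highest library was day 90 replicate 1, with 0 reads of Cd36, a gene that brain endothelium also expresses, and their lowest was day 90 replicate 4, with 17.9 CPM of Cd36. The part of endothelial cells in the Cd36 values was not tested.

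**Figure D3:**
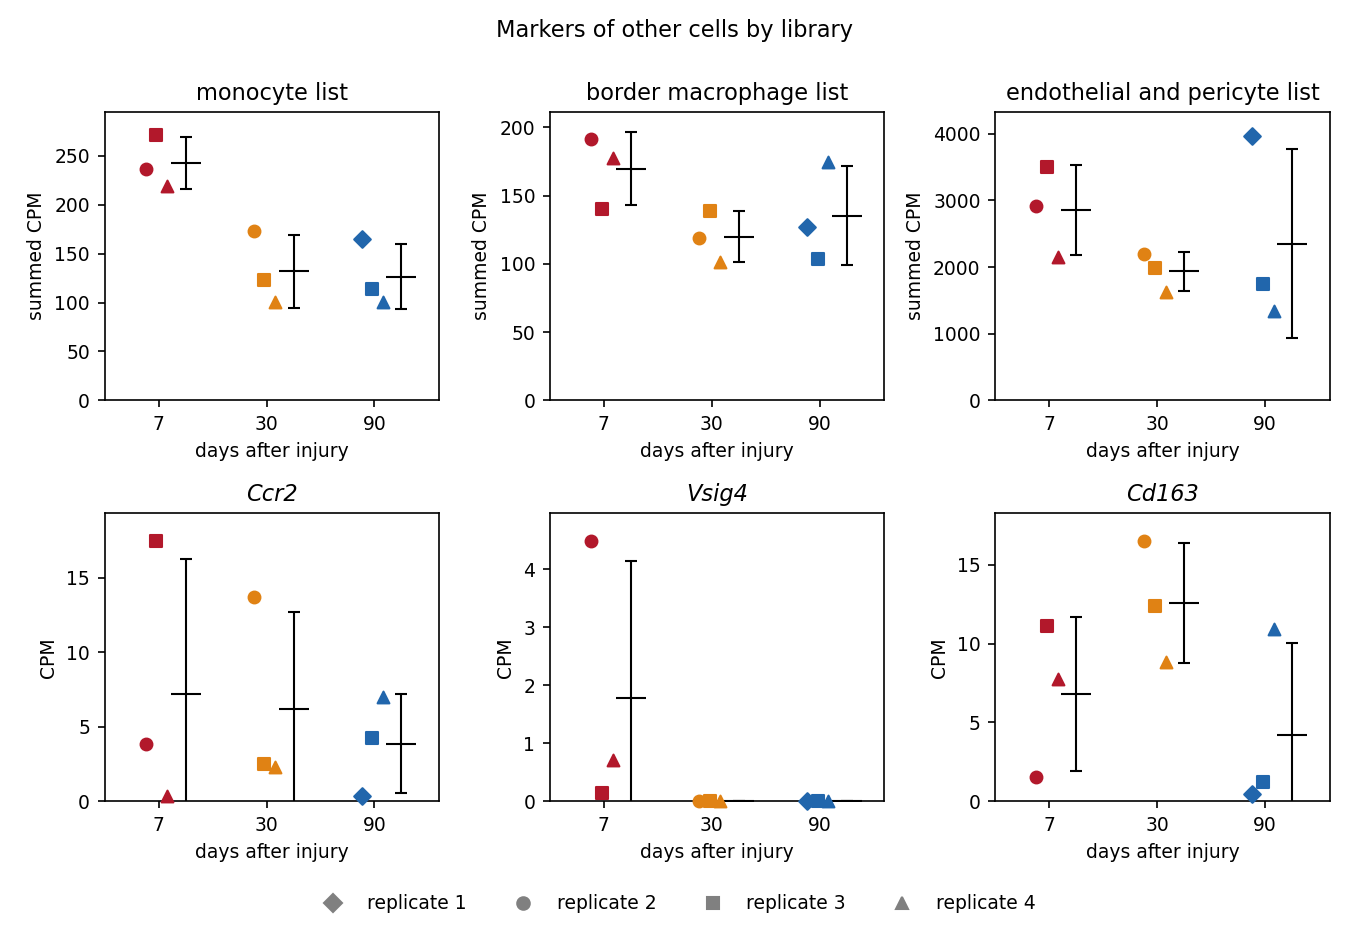
Summed level of 3 marker lists (top row, CPM) and level of single markers Ccr2, Vsig4 and Cd163 (bottom row, CPM) against days after injury; symbols are libraries, bars the mean with 1 SD, cut at 0. The monocyte sum is highest at day 7, Ccr2 is spread from 0.354 to 17.5 CPM within day 7, and Vsig4 is at 0 after day 7.

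The wider families were described from lists drawn up by function, but with earlier results of these data known. Of 18 other scavenger receptors, 15 passed the filter, and 1 of the 15, Clec7a, was lower at day 90 than at day 7 with limma, while none was higher, where 0.206% of all tested genes were called lower. The median log2 difference of the 15 was -0.63, against -0.024 over all tested genes, and 13 of them had a negative sign. Clec7a encodes the beta-glucan receptor dectin-1. Its levels were 109.3, 103 and 109.3 CPM at day 7, 64.2, 88.7 and 87.3 CPM at day 30 and 15.7, 50.7 and 52.9 CPM at day 90. The day 90 libraries lay below all others, with the lowest value in replicate 1. The log2 difference at day 90 against day 7 was -1.59 (adjusted p = 0.0253, within 0.0129 to 0.592 over 19 alternatives). The call was lost in 11 of the 19. Among these were the fits without each day 7 library in turn (-1.57 to -1.62), without day 30 replicates 3 or 4 (-1.59) and without day 90 replicate 1 (-1.03). The others included edgeR (adjusted p = 0.249), a pseudocount of 0.1 CPM (0.0705), no filter (0.592) and a filter at 10 CPM (0.0524).

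Receptors related by class or function were read at these levels. Scarb2, the third class B member and a lysosomal receptor, had 302 ± 27.1 CPM at day 7, 351 ± 40.1 CPM at day 30 and 342 ± 32.7 CPM at day 90. Cd68, the class D lysosomal glycoprotein gene, had 506 ± 52.5, 476 ± 53.2 and 384 ± 127 CPM at the 3 days. Mrc1 had 46.7 ± 6.65, 33.7 ± 20.6 and 35.0 ± 10.7 CPM. Stab2, the other class H receptor, had 0 reads in all libraries. These 4 genes were picked from the list after their values were seen, as class relatives, and the 3 with reads did not pass the threshold in any comparison.

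Among 9 other genes whose products carry SRCR domains, only Lgals3bp and Loxl3 passed the filter. Lgals3bp encodes a secreted galectin-binding glycoprotein of the same domain family as Cd5l. It had 575, 641 and 607 CPM at day 7, 284, 326 and 304 CPM at day 30, and 185, 192 and 225 CPM at day 90. As for Msr1, the 3 groups did not overlap and each day lay below the one before. From day 7 to day 90 it fell by 1.60 ± 0.20 on the log2 scale (SE; limma adjusted p = 4.38e-06), and it was called in all 19 alternatives. At day 30 against day 7 the log2 difference was -0.99 (adjusted p = 0.111), and 4 of 19 alternatives called it.

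In the LDL receptor family, 10 of 11 listed relatives of Lrp1 passed the filter and limma called none in any comparison, the share of all tested genes at day 90 against day 7 being 0.246%. Between day 7 and day 90, 8 of the 10 had a positive sign, with a median of 0.31, against -0.024 over all genes. The most abundant by mean CPM were Lrp10, with 106.9 ± 25.6 CPM at day 7 and 139.9 ± 22.98 CPM at day 90, the Wnt co-receptor gene Lrp5, with 91.9 ± 24.8 and 94.7 ± 26.8 CPM, and the sorting receptor gene Sorl1, with 61.4 ± 14.3 and 33.6 ± 12.4 CPM. None of the 3 passed the threshold.

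**Figure D4:**
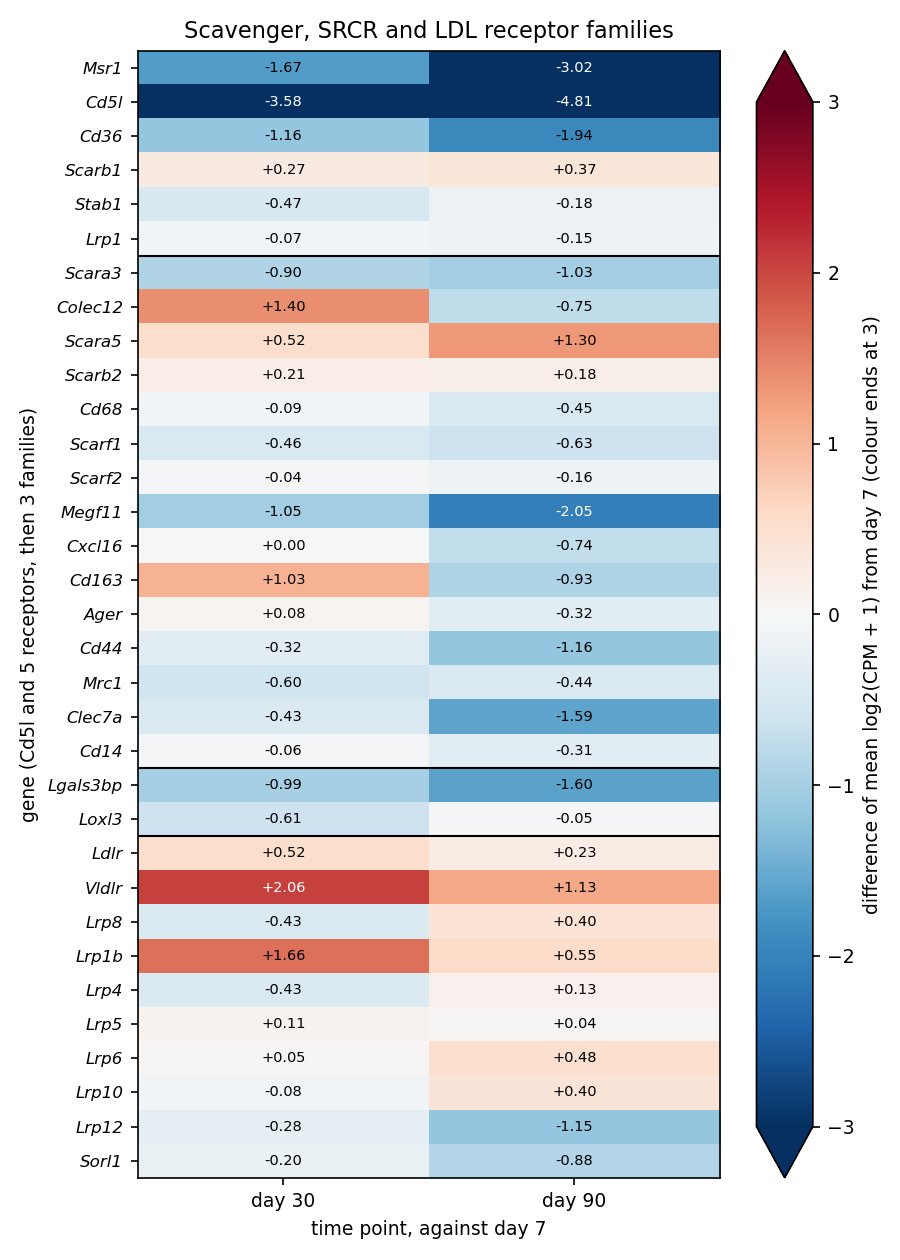
Difference of mean log2(CPM + 1) from day 7 at day 30 and day 90 (columns; colour and printed value, colour ends at 3) for Cd5l and 5 receptor genes and for the tested members of the scavenger receptor, SRCR and LDL receptor lists (rows, parted by black lines). Cd5l and Msr1 stand at -4.81 and -3.02 at day 90, in the comparison by which they were chosen, so their rank among the rows is not read. Cd36 stands at -1.94 and Lgals3bp at -1.60, while the rows of the LDL receptor family differ in sign.

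Ligands, chaperones and adaptors of these receptors were listed as 16 genes, of which 14 passed the filter. From day 7 to day 90, 2 of them fell with limma, and 13 of 14 had a negative sign, with a median of -0.70, where 0.206% of all tested genes were called lower and their median was -0.024. Both encode ligands of Lrp1. Lpl, lipoprotein lipase, had 314 ± 123, 245 ± 72.5 and 55.4 ± 10.8 CPM at days 7, 30 and 90, and its log2 difference at day 90 against day 7 was -2.42 (limma adjusted p = 7.59e-07). Apoe, apolipoprotein E, had 4362 ± 704, 3523 ± 366 and 1720 ± 703 CPM, a difference of -1.41 (adjusted p = 0.000695). Each of these calls was kept in 18 of 19 alternatives. Both were lost with no filter on low values (limma adjusted p = 0.109 for Lpl and 0.453 for Apoe). Lrp1 and its chaperone gene Lrpap1 stood at 1436 ± 93.8 and 92.6 ± 38.5 CPM at day 7 and at 1305 ± 235 and 84.4 ± 22.6 CPM at day 90, with neither past the threshold. Lpl and Apoe were also called lower at day 90 than at day 30, where 0.0532% of all tested genes were called lower. The Lpl call was lost in 1 of 19 alternatives, the fit with no filter (limma adjusted p = 0.583). The Apoe call (-1.11, adjusted p = 0.0446) was lost in 14 of 19 alternatives, among them edgeR (0.437), a pseudocount of 0.1 CPM (0.203), no filter (0.879), median-of-ratios scaling (0.0744), a robust spread (0.0798) and a filter at 10 CPM (0.0638). It was lost without 7 of the 9 libraries, at -0.81 without day 90 replicate 1 and between -1.03 and -1.18 without day 7 replicates 2 or 4, any day 30 library or day 90 replicate 3. Sparc, the ligand of stabilin-1 and a gene that microglia express strongly, had 4045 ± 531 CPM at day 7 and 2768 ± 67.8 CPM at day 90 (adjusted p = 0.412). Lrpap1 and Sparc were picked after their values were seen.

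Transcription factors known to act on these genes in macrophages were listed as 12, of which 10 passed the filter and none was called in any comparison with limma. Of all tested genes, limma called 0.246% at day 90 against day 7, 0% at day 30 against day 7 and 0.0532% at day 90 against day 30. Maf, which encodes the factor c-Maf, had 640 ± 28.5, 685 ± 18.6 and 776 ± 156.5 CPM at days 7, 30 and 90, and Spi1, which encodes PU.1, 234 ± 40.2, 315 ± 63.8 and 303 ± 58.98 CPM. Nr1h3, which encodes the lipid-sensing receptor LXR alpha that induces Cd5l in mouse macrophages, was near the limit of the filter, with mean levels of 1.16, 1.59 and 0.310 CPM. Spic had 0 reads in every library. Nr1h3 and Spic were picked after their values were seen.

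Genes that handle lipoprotein lipid after uptake were listed as 13, and 12 passed the filter. Of the 12, 10 had a negative sign, with a median of -0.65, from day 7 to day 90, against -0.024 over all genes, and 1 fell past the threshold, where 0.206% of all genes were called lower. This was Plin2, which coats lipid droplets, with 160 ± 34.3 CPM at day 7, 63.9 ± 17.96 CPM at day 30 and 44.97 ± 7.55 CPM at day 90 (log2 difference -1.79, limma adjusted p = 0.000832). The Plin2 call was kept in 18 of 19 alternatives and lost with no filter on low values (adjusted p = 0.151). Lipa, the acid lipase that frees cholesterol in the lysosome, had 114 ± 31.5, 57.7 ± 9.50 and 50.6 ± 23.0 CPM over the 3 days and did not pass (adjusted p = 0.153). It was picked after its values were seen.

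Likeness of pattern was measured as Pearson's r of log2(CPM + 1) over the 9 libraries, which fall into 3 time points, and is given as a description. The 3 genes most like Msr1 were Ostf1 (r = 0.968), Lgals3bp (0.963) and the inhibitory receptor gene Cd72 (0.961). Those most like Cd5l were Hcar2, a receptor gene for beta-hydroxybutyrate and nicotinic acid (0.984), Hacd4 (0.965) and again Ostf1 (0.954). Hcar2 had mean levels of 45.7, 21.1 and 16.9 CPM at days 7, 30 and 90. Those most like Cd36 were Lims2 (0.962), Kcnk2 (0.923) and Wfdc17 (0.920), and among those most like Scarb1 were Fzd7 (0.934) and Msi1 (0.933). For Stab1 they were Slc31a2 (0.920), Ermap (0.890) and Gtf3c4 (0.889), and for Lrp1 they were Med30 (0.968), Helz2 (0.935) and Resp18 (0.934). The largest r out of 15041 genes over 9 libraries is high for any gene.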

How the data were processed

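The authors deposited 1 table of CPM, read counts per gene scaled to a library total of 1e+06, with 1 column per mouse. Per the submitters' processing notes, bcl2fastq, STAR and HTSeq were used with the mm10 genome; no version, annotation release or strand setting is stated for them. Per the labels' protocols, RNA came from a PicoPure kit, and QuantSeq 3′ libraries were sequenced on a NextSeq 500. Reads come from 3′ ends, so CPM depends little on transcript length. Mean CPM was compared between genes only to choose which of a list to name.

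Dividing each column by its smallest step gave whole reads for 100% of values (tolerance 1e-06), and depths of 7210985 to 12965926. Genes reaching 1 CPM in 3 or more libraries were tested on log2(CPM + 1) with limma 3.58.1 in R 4.3.3 (1 mean per time point over all 9 libraries, mean trend, 6 residual and 28.4 prior degrees of freedom). P-values, all two-sided, were adjusted by Benjamini and Hochberg's method across the 15041 genes. edgeR 4.0.16 and DESeq2 1.42.0 on whole reads were alternatives, and the pipeline was tested on simulated data. The labels name separate mice and no batch.

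The members and gene lists were chosen with earlier results of these data known. Named genes are the members, list genes past the threshold (else the 3 most abundant), the most abundant marker of a cell type list, and the 3 genes most like each member, leaving out predicted gene models; other list genes, single markers beside the most abundant included, were chosen after their values were seen. Some genes that the rule names are not reported here. Positions came from GENCODE M21 (GRCm38), and promoter sequences from RefSeq (GRCm38.p6), without their transcribed bases. Protein sequences were not used here. Intervals and floors cover counting error or the spread between mice only, as stated beside them.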

Additional observations from a re-analysis of the deposited data

How the results depend on the processing

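Over 19 alternatives, the 6 tested genes gave 342 differences, of which 334 kept their sign. The Msr1 difference at day 90 against day 7 ranged from -3.30 to -2.30 and that of Cd5l from -11.2 to -2.68. Cd5l was called at day 30 against day 7 with a pseudocount of 5 CPM (adjusted p = 0.0483) and with DESeq2 (0.0165), and at day 90 against day 30 with DESeq2 (0.00846). These calls share day 7 or day 90 mice with the comparison that chose Cd5l. It also passed the filter through the day 7 libraries, so nothing is read from the calls. Between day 30 and day 90, signs turned for Cd36 with edgeR (0.42), DESeq2 (0.43) and the replicate block (0.27), and for Scarb1 (-0.024) and Lrp1 (0.039) with the block. Leaving out single libraries gave -0.093 (without day 90 replicate 1) to 0.36 for Scarb1 and -0.22 to 0.018 (without day 30 replicate 2) for Lrp1. For Lrp1 between day 7 and day 30 it gave -0.17 to 0.018 (without day 30 replicate 3). The cause was not tested.

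Of all genes, 37 were called at day 90 against day 7, with 1 without a filter on low values, 22 with edgeR, 130 with DESeq2 and 18 to 62 without single libraries. At day 30 against day 7 limma called 0 (939 unadjusted), against 3 with a pseudocount of 5 CPM, 2 with quantile normalization, 0 with edgeR, 34 with DESeq2, 10 with the replicate block and 0 to 8 without single libraries. At day 90 against day 30, 8 were called, with 0 without a filter (757 unadjusted with it, 7 with edgeR), 27 with DESeq2 and 4 to 18 without single libraries. The F-test over the 3 days called 26, with 15 at a pseudocount of 0.1 CPM, 0 without a filter and 11 to 52 without single libraries. Deviations of libraries with the same replicate number correlated between -0.045 and 0.039, so the numbers were not taken as pairs; the block gave 42, 10 and 6 calls in the 3 comparisons and 39 in the F-test, and changed no call of the 6 genes in those comparisons. With it Clec7a (day 90 against day 7) and Apoe (day 90 against day 30) were no longer called, and Plin2 and Lgals3bp were called at day 30 against day 7. Depth limits how low a level could be read for Marco at every day and for Cd5l at day 90. Cd36 had 0, 3 and 212 reads in day 90 replicates 1, 3 and 4, at depths of 11209396, 10538774 and 11824787 reads.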
